A study of Mus musculus with 2 samples.

Results

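The 10 genes described here encode transcription factors that set the identity and the maturation of natural killer (NK) cells and of the other innate lymphoid cells. They are Eomes, Tbx21, Gata3, Zeb2, Prdm1, Tcf7, Nfil3, Id2, Runx3 and Tox, taken by symbol from a gene count table of 30538 genes, and all 10 were found. They were read in 2 libraries of splenic cells from mice infected intravenously with 100000 Listeria monocytogenes and collected 3 days later. One library was of Ch25h-/- mice, in which the gene of cholesterol 25-hydroxylase is disrupted, and 1 was of C57BL/6 mice. Both groups carried the infection, and no uninfected library was part of the design. About 100000 cells per sort were taken as CD11b-positive, Ly6G-negative and Ly6C-low, a population that the labels name resident splenic macrophages. The labels give neither the age of the mice nor how many mice went into a library.

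NK cells and innate lymphoid cells arise from a common lymphoid precursor under a short series of regulators. Nfil3, Id2, Tox and Tcf7 act early, when the innate lymphoid fate is chosen over the B and T cell fates. Eomes and T-bet (the product of Tbx21) then give conventional NK cells their receptors and their killing machinery, and T-bet with Zeb2 and Prdm1 drives the last maturation steps. Gata3 is best known as the master regulator of type 2 helper T cells and of group 2 innate lymphoid cells, and Runx3 works beside the T-box factors in cytotoxic cells. Several of these genes are also used outside the NK lineage: Zeb2 and Id2 in macrophages and dendritic cells, Prdm1 in plasma cells, Nfil3 in myeloid cells and Tcf7 in T cells.

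The Ch25h-/- library held 15986392 counts and the C57BL/6 library 16957371. Values are given as CPM (counts relative to the library total, scaled with TMM factors) and, where genes are compared with each other, as TPM. TPM is counts per exon length relative to the library's own sum of such values, without TMM factors. Between the libraries a TPM pair can therefore differ slightly from a CPM pair. Runx3 had 425 CPM in Ch25h-/- against 422 CPM in C57BL/6, but 319 TPM in Ch25h-/- against 326 TPM in C57BL/6. Each genotype has 1 library, so no difference below has a replicate check. The 95% intervals are exact intervals of the ratio of 2 counts and cover counting error only, and without molecular identifiers several reads can come from 1 molecule. A log2 ratio is Ch25h-/- over C57BL/6, and a gene counts as measured from a mean of 1 CPM, which 11972 genes reached. Ch25h itself had 0 counts in the Ch25h-/- library and 3 counts in the C57BL/6 library, too few to check the genotype labels. The macrophage label was weighed against 13 macrophage markers, which were all measured and together reached 382 TPM in the Ch25h-/- library and 673 TPM in the C57BL/6 library. The 14 NK cell markers together reached 31862 TPM in the Ch25h-/- library and 21178 TPM in the C57BL/6 library. Gzma, the granzyme A gene, alone gave 19663 TPM of that sum in the Ch25h-/- library and 13512 TPM in the C57BL/6 library. In such bulk libraries, fewer cells of a type and less RNA per cell cannot be told apart.

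The start regions of 4 of these genes are shown because they turn up at the ends and at the middle of the list below: Tbx21 and Eomes are related T-box genes that were both higher in the Ch25h-/- library, Tcf7 was the lowest of the 10, and Runx3 was level. Each sequence is a RefSeq promoter window of build GRCm38.p6, from 250 bases before to 50 bases after an annotated start, read on the strand of the gene. Capitals mark 6-letter words on either strand. In the first 3 sequences they are CACCTG, searched as the ZEB word, and CAGCTG, searched as the word of E proteins, which Id2 holds back. In the fourth the word is TGTGGT, searched as the RUNX word. Whether other factors also bind these words was not looked at. The windows are chr11:97115282-97115581 on the minus strand for Tbx21, chr9:118477939-118478238 on the plus strand for Eomes, chr11:52282546-52282845 on the minus strand for Tcf7 and chr4:135120395-135120694 on the plus strand for Runx3.
Tbx21: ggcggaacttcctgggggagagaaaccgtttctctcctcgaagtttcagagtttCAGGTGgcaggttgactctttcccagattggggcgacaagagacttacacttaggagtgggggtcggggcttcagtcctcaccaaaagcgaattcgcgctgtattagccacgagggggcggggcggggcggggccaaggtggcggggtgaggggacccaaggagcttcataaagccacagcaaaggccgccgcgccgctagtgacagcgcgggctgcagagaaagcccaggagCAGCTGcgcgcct
Eomes: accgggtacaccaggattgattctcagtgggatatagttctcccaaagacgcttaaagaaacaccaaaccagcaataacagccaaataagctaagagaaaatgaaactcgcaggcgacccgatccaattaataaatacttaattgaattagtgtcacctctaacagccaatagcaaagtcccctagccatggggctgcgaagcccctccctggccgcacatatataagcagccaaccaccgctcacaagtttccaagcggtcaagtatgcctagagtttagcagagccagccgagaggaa
Tcf7: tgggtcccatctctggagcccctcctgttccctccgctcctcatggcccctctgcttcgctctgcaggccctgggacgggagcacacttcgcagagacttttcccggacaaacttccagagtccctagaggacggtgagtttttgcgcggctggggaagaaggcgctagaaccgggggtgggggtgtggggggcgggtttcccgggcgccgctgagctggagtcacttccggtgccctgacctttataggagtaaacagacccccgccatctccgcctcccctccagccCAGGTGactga
Runx3: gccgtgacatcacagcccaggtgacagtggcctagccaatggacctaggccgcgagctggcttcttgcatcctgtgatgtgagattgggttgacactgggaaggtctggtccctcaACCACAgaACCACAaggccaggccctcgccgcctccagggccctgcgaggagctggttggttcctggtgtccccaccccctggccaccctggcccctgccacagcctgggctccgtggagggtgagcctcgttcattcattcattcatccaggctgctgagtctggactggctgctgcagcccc
The Tbx21 window holds 1 word of each kind, the Eomes window holds neither, and the Runx3 window holds the RUNX word 2 times, both as its reverse complement. That Runx3 window belongs to the outer of 2 start sites; the inner one holds no RUNX word. For Tcf7 the window shown belongs to the inner of 2 start sites, and the outer one holds CAGCTG.

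RefSeq windows were found for 9 of the 10 genes; Tox had none. Searched on both strands over 32851 windows of 300 bases, CACCTG was in 20.2% of all windows, and in at least 1 window of 4 of the 9 genes (Tbx21, Prdm1, Tcf7 and Runx3). CAGCTG was in 16.3% of all windows, and in those of 5 genes (Tbx21, Gata3, Tcf7, Nfil3 and Id2). TGTGGT was in 16.8% of all windows and among the 9 genes in that of Runx3. The words of the other factors were in no window of the 9 genes. They were GGTGTGA for T-box factors (3.98% of all windows), AGATAA or TGATAA for GATA factors (18.6%), CTTTGA for TCF factors (16%), GTGAAAG for Prdm1 (4.24%) and TTACGTAA or TTATGTAA for Nfil3 (1.06%). A gene with several windows has more chances of a match, and a match is a run of letters, not a measured binding site.

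All 10 genes were measured, and together they took 0.234% of counts in the Ch25h-/- library and 0.222% in the C57BL/6 library. Id2, an inhibitor that binds E proteins and keeps them off DNA, was the most abundant per exon length. It had 1337 TPM in the Ch25h-/- library and 1236 TPM in the C57BL/6 library. Tox, an HMG-box factor needed for early innate lymphoid development, was the least abundant, with 7.62 TPM in the Ch25h-/- library and 4.75 TPM in the C57BL/6 library. Between these ends the order of levels differed between the libraries.

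In the Ch25h-/- library Tbx21 stood in place 2 (412 TPM), followed by Runx3 (319 TPM), Nfil3 (301 TPM), Eomes (198 TPM) and Prdm1 (111 TPM). Tcf7 (49.5 TPM), Gata3 (43.8 TPM) and Zeb2 (27.9 TPM) came next. In the C57BL/6 library Nfil3 held place 2 (425 TPM), ahead of Runx3 (326 TPM), Tbx21 (238 TPM), Eomes (136 TPM) and Prdm1 (126 TPM). Tcf7 followed closely at 100.1 TPM, and Gata3 (35.0 TPM) and Zeb2 (34.2 TPM) lay well below it. Tbx21 and Nfil3 thus exchanged places 2 and 4. The levels of Gata3 and Zeb2 in the C57BL/6 library did not differ beyond counting error (ratio 1.02, 95% interval 0.938 to 1.12), and every other pair of neighbours in either order did with these merged exon lengths. Several of these places depend on the length used. With the longest transcript in place of merged exons, Zeb2 had 47.6 TPM in the Ch25h-/- library and 58.3 TPM in the C57BL/6 library, above Gata3 in both. In the Ch25h-/- library it then also lay above Tcf7 (41.1 TPM), which came after Gata3 (42.3 TPM), and Tbx21 (322 TPM) was close to Runx3 (321 TPM). In the C57BL/6 library Nfil3 (331 TPM) was then close to Runx3 (327 TPM).

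**Figure D1:**
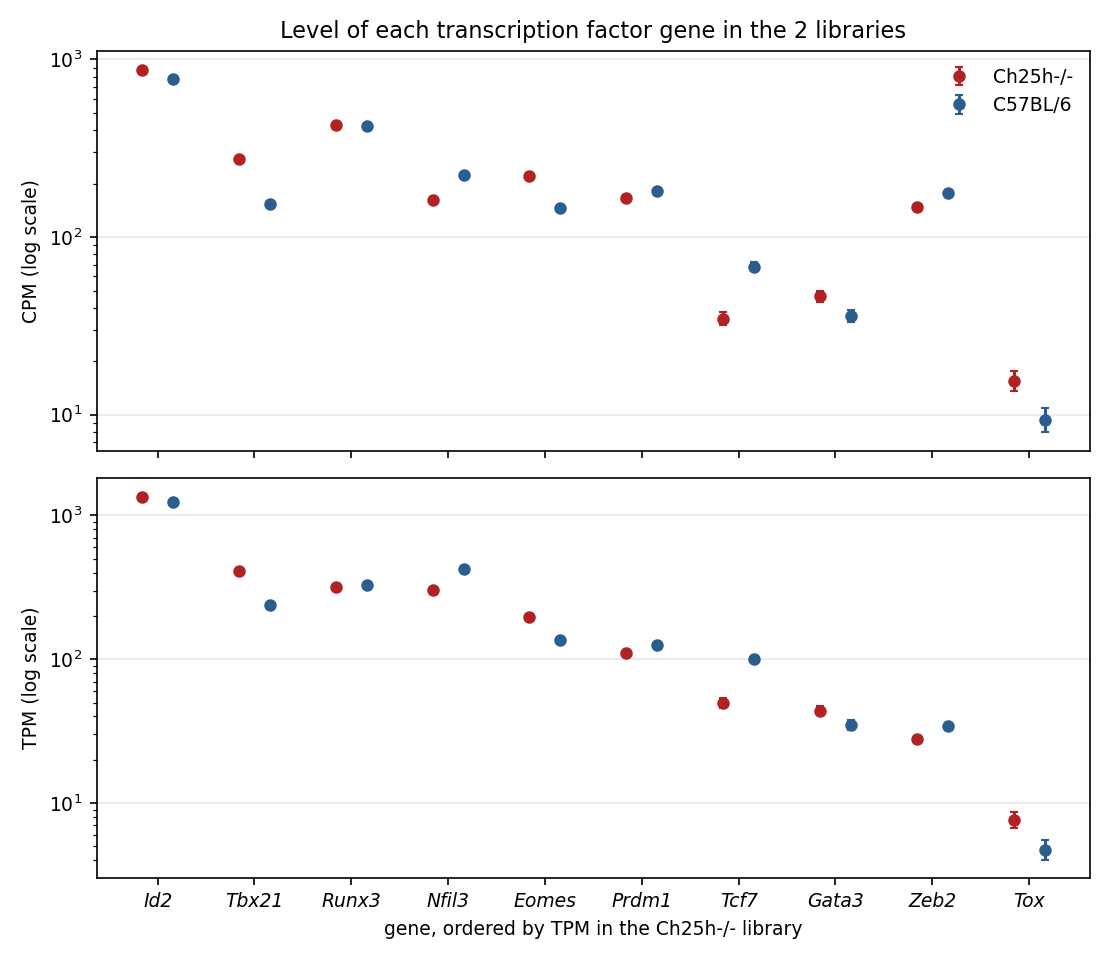
Level of each gene in the Ch25h-/- library (red, left of each pair) and the C57BL/6 library (blue), as CPM in the upper panel and TPM in the lower one, both on log axes; bars are exact 95% Poisson intervals of the count. Tbx21 reached 273 CPM in Ch25h-/- against 153 CPM in C57BL/6, Tcf7 34.7 CPM in Ch25h-/- against 68.0 CPM in C57BL/6, and Runx3 was level at 425 CPM in Ch25h-/- and 422 CPM in C57BL/6.

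None of the 10 genes differed by 2-fold, a size that 7.84% of all measured genes passed with an interval on 1 side of 0 (2.07% higher and 5.77% lower in the Ch25h-/- library). At 1.5-fold, Tbx21 and Tox were higher and Tcf7 was lower. That is 2 of 10 genes higher and 1 of 10 lower, where 7.35% of all measured genes were higher and 11.2% lower. Eomes lay on that threshold, with a log2 ratio of 0.58 that fell just under it. The interval lay above 0 for 5 genes and below 0 for 4, against 31.0% and 27.5% of all measured genes, and Runx3 was the gene whose interval held 0. Many counts narrow an interval, and these shares were not taken over genes of like counts. The median log2 ratio of the 10 genes was 0.08, close to the 0.01 of all measured genes. The genes thus spread to both sides of a centre near 0.

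**Figure D2:**
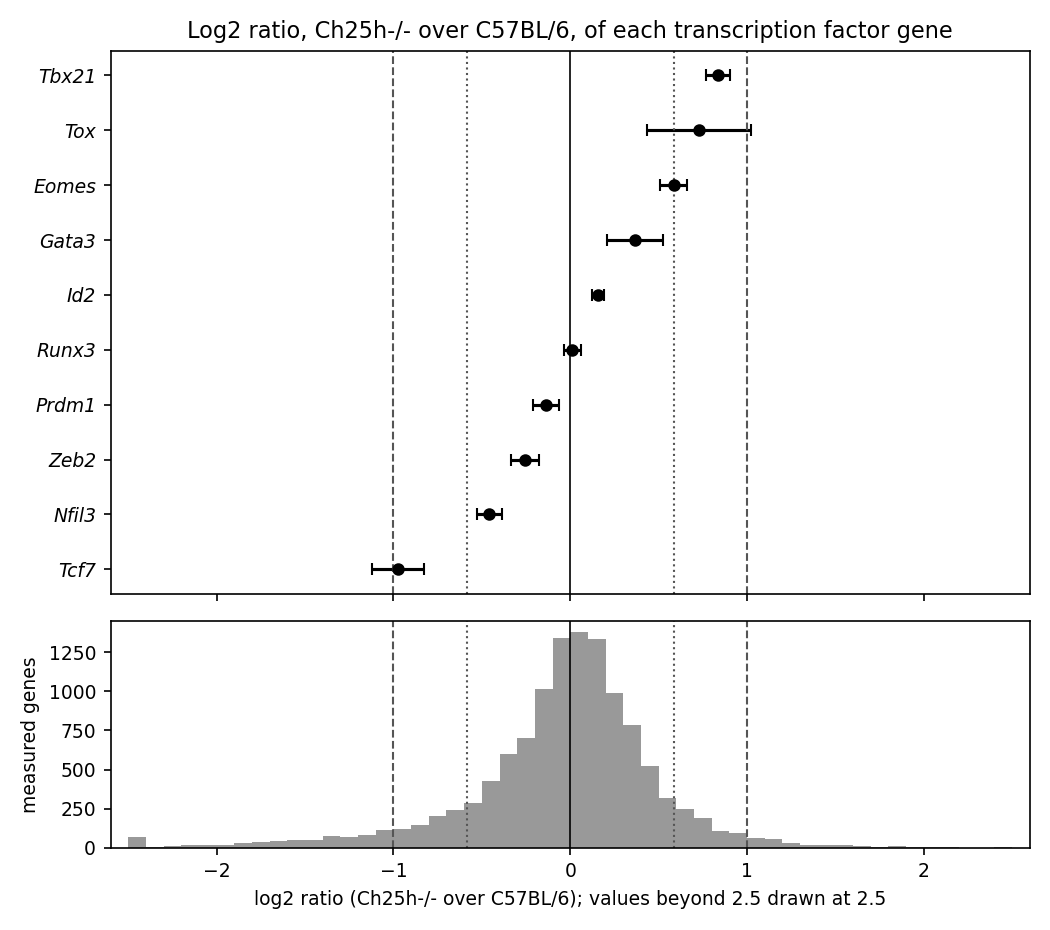
Log2 ratio of each gene (upper panel, points with exact 95% intervals) above the distribution over all measured genes (lower panel, number of genes per bin); dotted lines mark 1.5-fold and dashed lines 2-fold. The 10 genes run from 0.84 for Tbx21 to -0.97 for Tcf7, and their median is 0.08.

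The T-box pair stood at the upper end. Tbx21 (ENSMUSG00000001444, GRCm38 chromosome 11, 97098071 to 97115331, minus strand), the gene of T-bet, had 4332 counts in the Ch25h-/- library and 2621 counts in the C57BL/6 library. These equal 273 CPM in Ch25h-/- and 153 CPM in C57BL/6, a log2 ratio of 0.84 (95% interval 0.77 to 0.91), or 1.79-fold higher in the Ch25h-/- library. Only 3.38% of measured genes had a larger ratio. Eomes (ENSMUSG00000032446, chromosome 9, 118478212 to 118486132, plus strand), which keeps NK cells apart from other group 1 innate lymphoid cells, had 3476 counts in the Ch25h-/- library and 2503 counts in the C57BL/6 library. At 219 CPM in Ch25h-/- against 146 CPM in C57BL/6, its log2 ratio was 0.58 (0.51 to 0.66). The Tbx21 ratio exceeded the Eomes ratio by 0.25 (0.15 to 0.35). Per exon length, Tbx21 was 2.08 times as abundant as Eomes in the Ch25h-/- library and 1.75 times in the C57BL/6 library.

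Of the other T-box genes, Mga alone was abundant. Of 14 T-box genes looked up, 8 had 0 counts in both libraries (Tbx1, Tbx3, Tbx4, Tbx5, Tbx15, Tbx18, Tbx19 and Tbx20), which at a floor of 3 counts allows up to 0.189 CPM in the Ch25h-/- library and 0.175 CPM in the C57BL/6 library. Tbx21 and Eomes together made up 93.4% of T-box TPM in the Ch25h-/- library and 87.4% in the C57BL/6 library. Mga, a broadly used member with a T-box and a second DNA-binding domain, made up 6.10% in the Ch25h-/- library and 10.03% in the C57BL/6 library. Tbx6 had 26 counts in the Ch25h-/- library and 80 counts in the C57BL/6 library, a log2 ratio of -1.51 (-2.21 to -0.86), opposite to Tbx21 and Eomes.

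The genes that T-bet and Eomes are known to switch on were mostly higher too. Of 16 such targets, all measured, 15 had a log2 ratio above 0, 6 were higher by 1.5-fold and 1 of these by 2-fold, and none was lower at either size. Of all measured genes, 51.8% had a log2 ratio above 0, 7.35% were higher by 1.5-fold and 2.07% by 2-fold. The median log2 ratio of the targets was 0.54, beside 0.01 for all measured genes. Gzma and Prf1 also stand on the NK cell marker list, whose median was 0.72. The part of T-bet and Eomes, or of the NK cell content, in the target ratios was not tested. The chemokine gene Xcl1 had 27.7 CPM in the Ch25h-/- library and 12.0 CPM in the C57BL/6 library, a log2 ratio of 1.20 (0.96 to 1.45). The maturation receptor gene Klrg1 had 260.2 CPM in the Ch25h-/- library and 137 CPM in the C57BL/6 library (0.92), and the integrin gene Itga2, which encodes CD49b, had 166 CPM in Ch25h-/- and 88.5 CPM in C57BL/6 (0.91). Gzmb, the granzyme B gene, held the most counts, at 7429 CPM in Ch25h-/- against 4356 CPM in C57BL/6 (0.77). Ccl3 was the exception, at 261 CPM in the Ch25h-/- library and 299 CPM in the C57BL/6 library (-0.20, interval -0.26 to -0.14). S1pr5, an egress receptor that T-bet and Zeb2 both act on, stood at 0.24 (0.03 to 0.45).

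NK cell markers differed in the same direction as Tbx21 and Eomes. All 14 were measured and had log2 ratios above 0, with 4 past 2-fold, a median of 0.72 and no marker at 0 counts in either library. Klrc2 (1.55), Ncr1 (1.46), Klre1 (1.17) and Klrd1 (1.04) had the largest ratios, and Gzma, with the most counts, stood at 0.58. The Klr genes have similar relatives among which reads may be divided. Relative to the summed counts of the 14 markers, whose log2 ratio was 0.65, Tbx21 was higher by 0.18 (0.11 to 0.25) and Eomes stood at -0.07 (-0.14 to 0.01). The granzyme and perforin genes Gzma and Prf1 make up most of that sum. Without them the Tbx21 value became -0.01 and the Eomes value -0.26, so Tbx21 was level with the other markers and Eomes was not. The part of the NK cell content in the Tbx21 and Eomes ratios was not tested.

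Tox (ENSMUSG00000041272, chromosome 4, 6686353 to 6991557, minus strand) was higher too, but from few reads. It had 245 counts in the Ch25h-/- library and 160 counts in the C57BL/6 library, or 15.5 CPM in Ch25h-/- against 9.35 CPM in C57BL/6. The log2 ratio was 0.73 (0.43 to 1.02), the widest interval of the 10 genes, and it could not be told apart from Tbx21 (difference 0.11 in favour of Tbx21, interval -0.19 to 0.41) or from Eomes (0.14 in favour of Tox, interval -0.16 to 0.44). Tox made up 8.70% of the TPM of its family of 4 genes in the Ch25h-/- library and 5.61% in the C57BL/6 library. The rest was almost entirely Tox4, a broadly expressed relative, at 78.6 TPM in Ch25h-/- and 77.2 TPM in C57BL/6 (log2 ratio 0.07). Tox2, which is used in NK cell development, went the other way on 11 counts in the Ch25h-/- library and 37 counts in the C57BL/6 library (-1.64, interval -2.76 to -0.64).

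Gata3 (ENSMUSG00000015619, chromosome 2, 9857078 to 9890034, minus strand) had 736 counts in the Ch25h-/- library and 617 counts in the C57BL/6 library. At 46.5 CPM in Ch25h-/- against 36.1 CPM in C57BL/6, its log2 ratio was 0.37 (0.21 to 0.52). It held 85.5% of GATA family TPM in the Ch25h-/- library and 78.8% in the C57BL/6 library, with Gata2, a factor of mast cells, basophils and progenitors, next at 5.75 TPM in Ch25h-/- against 8.07 TPM in C57BL/6. Group 2 innate lymphoid cell markers did not show a common direction with Gata3. Of 10 looked up, 6 were measured, 2 with log2 ratios above 0 and 4 below. The growth factor gene Areg had 2 counts in the Ch25h-/- library and 48 counts in the C57BL/6 library (-4.47, interval -7.56 to -2.54). Ptgdr2 (-1.16), Rora (-0.67) and Il1rl1 (0.52, the most abundant at 67.6 CPM in Ch25h-/- against 47.0 CPM in C57BL/6) followed, and the cytokine genes Il5 and Il13 had at most 7 counts in any library.

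Id2 (ENSMUSG00000020644, chromosome 12, 25093799 to 25097140, minus strand) and Runx3 (ENSMUSG00000070691, chromosome 4, 135120652 to 135177990, plus strand) stood in the middle of the order. Id2 had 13769 counts in the Ch25h-/- library and 13342 counts in the C57BL/6 library, or 869 CPM in Ch25h-/- against 780 CPM in C57BL/6. Its log2 ratio was 0.16 (0.12 to 0.19), small but beyond counting error at this depth. Runx3 had 6739 counts in the Ch25h-/- library and 7218 counts in the C57BL/6 library, or 425 CPM in Ch25h-/- against 422 CPM in C57BL/6 (0.01, interval -0.04 to 0.06). As far as counting error goes, that interval leaves room for a difference of at most 0.06 in either direction on the log2 scale.

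Both genes dominated their families. Id2 held 99.1% of ID family TPM in the Ch25h-/- library and 98.1% in the C57BL/6 library. Id3, which together with Id2 restrains E proteins in lymphocytes, had 36 counts in the Ch25h-/- library and 105 counts in the C57BL/6 library, a log2 ratio of -1.43 (-2.02 to -0.87). Runx3 held 73.5% of RUNX TPM in the Ch25h-/- library and 75.3% in the C57BL/6 library, with Runx1 (0.20) and Runx2 (0.11) close to level. Cbfb, the shared partner subunit that RUNX proteins need to bind DNA firmly, was higher at 199 CPM in the Ch25h-/- library and 137 CPM in the C57BL/6 library (0.54, interval 0.46 to 0.62). It had the largest positive ratio among 12 measured partner genes, of which none passed 1.5-fold upward and Tle1, a Groucho-type corepressor, passed it downward (-0.65, interval -1.07 to -0.23). Of the E protein genes that Id2 acts on, Tcf4 stood at -0.40, Tcf3 at -0.14 and Tcf12 at 0.26. The other partners with a large ratio were Zfpm1, a cofactor of GATA proteins (0.46), and Tle3 held the most counts at 567 CPM in Ch25h-/- against 573 CPM in C57BL/6 (-0.01).

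Prdm1, Zeb2 and Nfil3 were lower in the Ch25h-/- library. Prdm1 (ENSMUSG00000038151, chromosome 10, 44437177 to 44528501, minus strand), the gene of the repressor Blimp-1, had 2613 counts in the Ch25h-/- library and 3102 counts in the C57BL/6 library. At 165 CPM in Ch25h-/- against 181 CPM in C57BL/6, its log2 ratio was -0.14 (-0.21 to -0.06). Zeb2 (ENSMUSG00000026872, chromosome 2, 44983632 to 45117395, minus strand) had 2348 counts in the Ch25h-/- library and 3024 counts in the C57BL/6 library, or 148 CPM in Ch25h-/- against 177 CPM in C57BL/6 (-0.25, interval -0.33 to -0.18). Among the relatives of Prdm1, Prdm16 had 24 counts in the Ch25h-/- library and 69 counts in the C57BL/6 library (-1.41, interval -2.15 to -0.72), and Prdm2, with the most counts, stood at -0.05. The Zeb2 relative Zeb1 stood further to the same side, at 89.4 CPM in the Ch25h-/- library and 116 CPM in the C57BL/6 library (-0.38, interval -0.48 to -0.28). Nfil3 (ENSMUSG00000056749, chromosome 13, 52967209 to 52981073, minus strand), a repressor needed for NK cell development and induced by many cytokines, had 2573 counts in the Ch25h-/- library and 3816 counts in the C57BL/6 library. At 162 CPM in Ch25h-/- against 223 CPM in C57BL/6 it stood at -0.46 (-0.53 to -0.38), and 84.5% of measured genes had a higher ratio.

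These 3 genes departed from the T-box pair. The Tbx21 ratio exceeded the Prdm1 ratio by 0.97 (0.87 to 1.08), the Zeb2 ratio by 1.09 (0.99 to 1.19) and the Nfil3 ratio by 1.29 (1.19 to 1.39). Relative to the summed NK cell markers they lay at -0.79, -0.91 and -1.11, in the same order. Markers of the other cells that use these genes lay on both sides of 0. Of the myeloid cells, neutrophil markers (median 0.97, 10 of 10 above 0) and Ly6C-high monocyte markers (median 0.56, 5 of 6 above 0) were mostly higher in the Ch25h-/- library, while markers of macrophages and dendritic cells were mostly lower. All 13 macrophage markers were measured and had log2 ratios under 0, 6 of them past 2-fold, with a median of -0.78, and none was at 0 counts. Mrc1 (-2.54), Marco (-1.56), C1qa (-1.40) and Cd163 (-1.33) were lowest, and the most abundant, Csf1r, stood at -0.44. Conventional dendritic cell markers had a median of -1.83 over 9 measured of 12, with 7 past 2-fold downward. Esam (-2.66), Batf3 (-2.14), Fscn1 (-2.13) and Ccr7 (-1.93) were lowest, and Irf8, the most abundant, stood at 0.49. Xcr1 had 6 counts in the Ch25h-/- library and 0 counts in the C57BL/6 library. Of 7 measured plasma cell markers, 5 were lower past 2-fold (Irf4 -1.83, Sdc1 -1.59, Derl3 -1.56, Mzb1 -1.28 and Jchain -1.02), while Xbp1 stood at -0.10 and Slamf7, the most abundant, at 0.36. The part of these cell types in the Prdm1, Zeb2 and Nfil3 ratios was not tested.

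Tcf7 (ENSMUSG00000000782, chromosome 11, 52252371 to 52283014, minus strand), the gene of TCF-1, stood apart at the lower end. It had 549 counts in the Ch25h-/- library and 1164 counts in the C57BL/6 library, or 34.7 CPM in Ch25h-/- against 68.0 CPM in C57BL/6. The log2 ratio was -0.97 (-1.12 to -0.83), 1.96-fold lower in the Ch25h-/- library and just short of 2-fold. The gap to its nearest neighbour, Nfil3, was 0.52 (0.35 to 0.68), the widest between neighbours in the order of ratios. Only 6.05% of measured genes had a lower ratio.

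The close relative Lef1, which shares many sites with TCF-1 in lymphocytes, did not follow. It had 588 counts in the Ch25h-/- library and 625 counts in the C57BL/6 library, or 37.1 CPM in Ch25h-/- against 36.5 CPM in C57BL/6 (0.02, interval -0.14 to 0.19). Tcf7 therefore held 68.0% of TCF/LEF family TPM in the Ch25h-/- library and 79.8% in the C57BL/6 library, while Lef1 held 21.8% in the Ch25h-/- library and 12.8% in the C57BL/6 library. Tcf7l2 stood at -0.28 (-0.52 to -0.04), and Ctnnb1, the gene of the coactivator beta-catenin, at 0.28 (0.21 to 0.34).

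Tcf7 also differed from the T cell markers. Of 14 looked up, 12 were measured, 5 with log2 ratios above 0 and 7 below, with a median of -0.12, none past 2-fold and none at 0 counts. Cd8a (0.70), Cd4 (-0.52), Cd247 (0.46, the most abundant, at 159 CPM in Ch25h-/- against 116 CPM in C57BL/6), Cd8b1 (-0.36) and Cd6 (-0.36) were the farthest from 0. Relative to the summed counts of the 12 markers, whose log2 ratio was 0.18, Tcf7 stood at -1.15 (-1.31 to -0.99). Cd247 weighs most on such a sum. It gave 159 of the 304 CPM of all 14 genes in the Ch25h-/- library and 116 of 268 CPM in the C57BL/6 library. Icos gave 79.0 CPM in Ch25h-/- and 88.1 CPM in C57BL/6, but Cd3e only 7.51 CPM in Ch25h-/- and 6.49 CPM in C57BL/6. The summed ratio thus says little about the rarer T cell markers. The list median of -0.12 lies nearer to Tcf7 than the summed ratio does. The summed markers of other cells lay at varied distances from Tcf7. Relative to those of group 2 innate lymphoid cells it stood at -1.08 (-1.25 to -0.90), and of macrophages at -0.31 (-0.46 to -0.16). For B cells the value was -0.30 (-0.45 to -0.15) and for group 1 innate lymphoid cells -0.28 (-0.45 to -0.12). Of the lists compared by sum, Tcf7 lay nearest to those of group 3. Single abundant genes weigh on such sums, as Il1rl1 does in group 2, Il7r in group 1 and Ltb in group 3. List medians gave another order, with group 1 (-0.92) nearest to Tcf7. The other medians were -0.78 for macrophages, -0.68 for B cells, -0.54 for group 2 and -1.21 for group 3. Among 6 measured markers of group 3 innate lymphoid cells all log2 ratios were under 0, with a median of -1.21 and 4 past 2-fold. They were Tmem176b (-1.39), Il23r (-1.37), Ccr6 (-1.36) and Il22 (-1.07), while Ltb, the most abundant, stood at -0.29. Il7r, the interleukin-7 receptor gene of naive T cells and helper-like innate lymphoid cells, had 67.2 CPM in the Ch25h-/- library and 137 CPM in the C57BL/6 library (-1.03, interval -1.13 to -0.92). Relative to the summed group 3 markers, Tcf7 stood at -0.15 (-0.33 to 0.04). Tmem176a, Tmem176b and Ccr6 are also used by dendritic cells or B cells, whose markers were lower in the same library (B cell median -0.68, 10 of 10 under 0), and the part of any of these cells in the Tcf7 ratio was not tested.

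Tcf7 and the T-box genes stood in a different balance in each library. Per exon length, Tbx21 was 8.33 times as abundant as Tcf7 in the Ch25h-/- library and 2.38 times in the C57BL/6 library, a log2 difference of 1.81 (95% interval 1.65 to 1.97). The Eomes ratio exceeded the Tcf7 ratio by 1.56 on the log2 scale (interval 1.39 to 1.72). The Prdm1 and Zeb2 ratios, themselves below 0, exceeded the Tcf7 ratio by 0.84 and 0.72, both beyond counting error. Of the 45 pairs that the 10 genes form, 43 differed in log2 ratio beyond counting error. The 2 that did not were the pairs of Tox with Tbx21 and with Eomes. The share over pairs of other measured genes was not computed. Many counts make small differences pass, so the number is not read as a trait of the 10 genes.

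**Figure D3:**
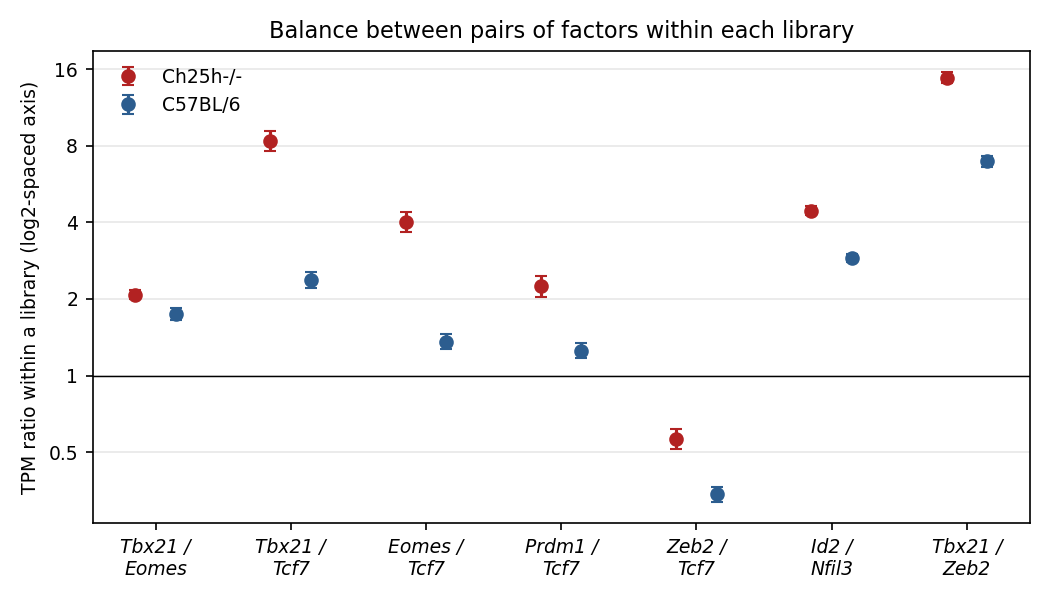
TPM ratio of 7 pairs of genes within the Ch25h-/- library (red, left) and the C57BL/6 library (blue), on a log2-spaced axis, with 95% intervals from counting error. Tbx21 over Tcf7 shows the widest gap, 8.33 in Ch25h-/- against 2.38 in C57BL/6, and Tbx21 over Eomes the narrowest, 2.08 in Ch25h-/- against 1.75 in C57BL/6.

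The other transcription factors of these lineages spread to both sides in the same way. Of 30 looked up, 28 were measured. Of these, 12 had log2 ratios above 0 and 16 below, with a median of -0.03, none past 2-fold, 3 higher by 1.5-fold and 4 lower by 1.5-fold. The 3 higher genes were Zbtb32, a repressor needed for the expansion of NK cells in viral infection (414 CPM in Ch25h-/- against 252 CPM in C57BL/6, log2 ratio 0.72), Bcl11b, a T cell and group 2 innate lymphoid cell factor (6.06 CPM in Ch25h-/- against 3.68 CPM in C57BL/6, 0.72), and Gfi1 (51.9 CPM in Ch25h-/- against 33.3 CPM in C57BL/6, 0.64). The lower genes included Klf2, Rora and Stat5a. Klf2, which holds lymphocytes quiescent and guides their traffic, had 182 CPM in the Ch25h-/- library and 342 CPM in the C57BL/6 library (-0.91, interval -0.97 to -0.84). Stat5a, a signal carrier of interleukin-2 and interleukin-15, had 134 CPM in Ch25h-/- and 213 CPM in C57BL/6 (-0.66), Stat5b stood at -0.37 and Stat4, which carries the interleukin-12 signal, at -0.35. The Ikaros family genes Ikzf2 (0.49), Ikzf3 (0.44) and Ikzf1 (0.26) were all higher. Ets1, which acts early in NK development, held the most counts of the list at 1184 CPM in Ch25h-/- against 1080 CPM in C57BL/6 (0.13).

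Cytokine receptor genes of these cells went both ways. Of 16 looked up, 15 were measured, 10 with log2 ratios above 0 and 5 below (median 0.32). The interleukin-18 receptor gene Il18rap (820.4 CPM in Ch25h-/- against 514 CPM in C57BL/6, 0.67) and Il2rb (2804 CPM in Ch25h-/- against 1783 CPM in C57BL/6, 0.65), the chain shared by the interleukin-2 and interleukin-15 receptors, were higher. Il12rb1 (0.56), Il18r1 (0.54) and Il12rb2 (0.42) stood on the same side. Il23r (-1.37), Il7r (-1.03), Il15ra (-0.97), Il21r (-0.88) and Il4ra (-0.67) were lower. Il15ra, which presents interleukin-15 to NK cells from the surface of myeloid cells, had 69.3 CPM in the Ch25h-/- library and 136 CPM in the C57BL/6 library.

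Of 40 paralogues of the 10 genes looked up, 21 were measured and 11 had 0 counts in both libraries. None was higher past 1.5-fold, and 4 were lower past 2-fold (Tox2, Tbx6, Id3 and Prdm16, each under 7 CPM), with a median log2 ratio of -0.17.

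The remaining marker lists place the 10 genes in the wider make-up of these libraries. Proliferation genes were all higher, with a median log2 ratio of 0.89 over 12 genes and 4 past 2-fold (Ccna2 1.17, Top2a 1.07, Kif11 1.04 and Rrm2); Mki67, with the most counts of them, stood at 0.78. Neutrophil markers had a median of 0.97 over 10 genes (Ly6g 2.47, Mmp9 1.18, Ltf 1.12 and Camp 1.04). The Ly6g value rests on 41 counts in the Ch25h-/- library and 8 counts in the C57BL/6 library (interval 1.36 to 3.77). Ly6C-high monocyte markers had one of 0.56 over 6 (Ccr2 1.19, Vcan 1.02, Ly6c2 0.75 and Fn1 -0.59). Ly6C-low monocyte markers, of the cells nearest to the sorting gate, had one of -0.25 over 9, with 6 below 0 and 3 above. Those below included Fcgr4 (-1.13) and Ear2 (-0.76), and those above were Cx3cr1 (0.62), Spn (0.52) and Itgal (0.41). Cx3cr1 and Spn also stand on the list of T-bet and Eomes targets. Of the B cell markers, Ebf1 and Fcrla (both -1.10) were lowest, Cd79a stood at -0.76, and Cd22 stood at -0.61. The median was -0.32 over 6 plasmacytoid dendritic cell markers, with Siglech at 0 counts in both libraries (Ccr9 0.76, Spib -0.45, Tcf4 and Pacsin1 -0.40, and Irf7 -0.24). Group 1 innate lymphoid cell markers were mixed. Cxcr6 (10.5 CPM in Ch25h-/- against 3.10 CPM in C57BL/6, 1.76), Itga1 (0.79) and Tnfsf10 (0.51) were above 0, and Tmem176a (-1.82), Tmem176b, Il7r and Cd200r1 (-0.92) were below. These lists share genes with each other, since Il7r, Tmem176b, Rora and Irf4 each stand on more than 1 list.

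**Figure D4:**
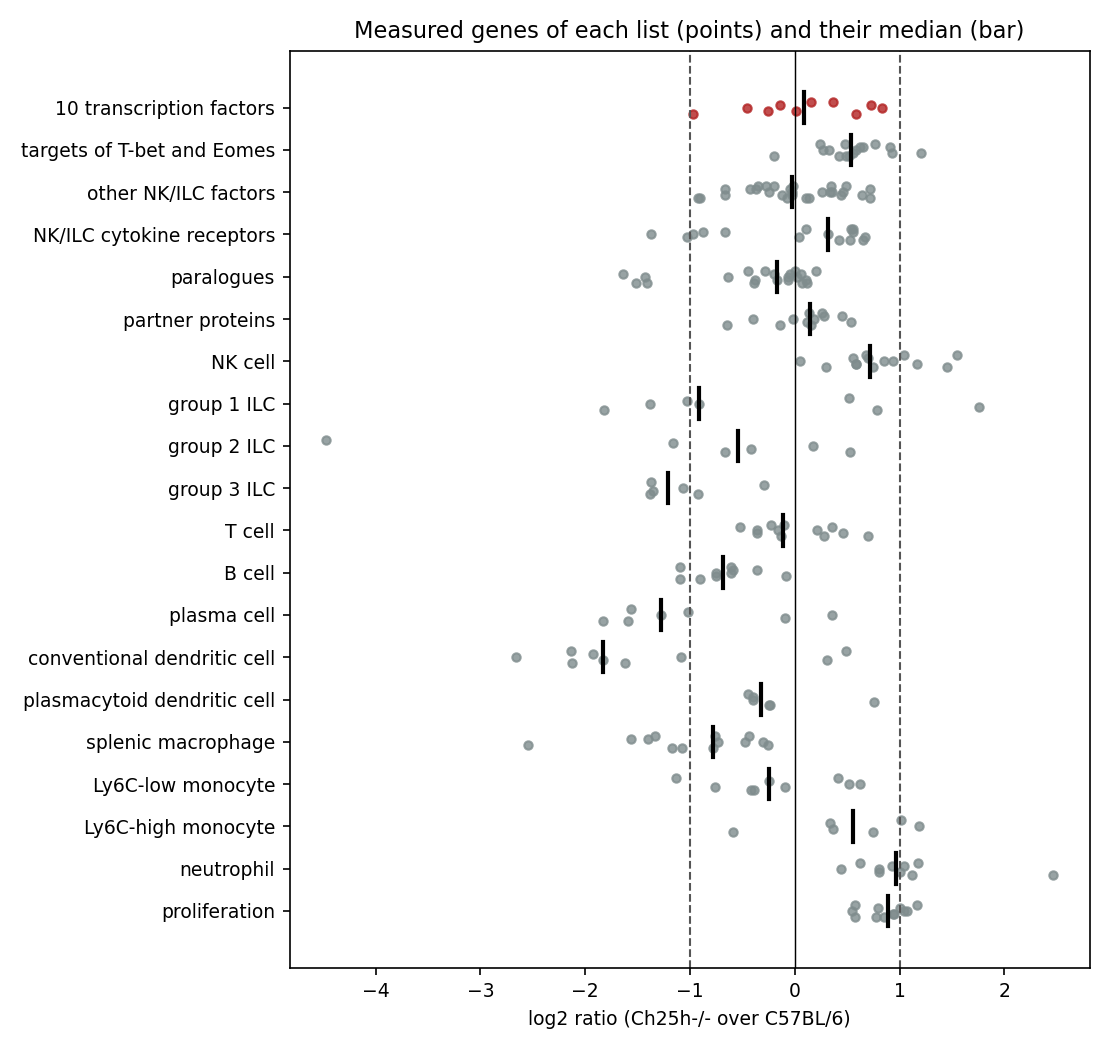
Log2 ratio (Ch25h-/- over C57BL/6) of the measured genes of each list, 1 point per gene with the list's median as a bar; dashed lines mark 2-fold. The 10 transcription factors (red, top) centre on 0.08, between the NK cell markers at 0.72 and the splenic macrophage markers at -0.78.

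Annotated antisense genes overlap exons of Eomes (118 bases), Gata3 (155 bases), Tox (260 bases) and Zeb2 (653 bases). Whether strand was used in counting is not given in the sources used here, so reads of those genes and of their antisense partners cannot be told apart there. The exons of the other 6 genes overlap no other annotated gene.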

How the data were processed

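Libraries were prepared from TRIzol-extracted RNA with a KAPA HyperPrep kit, per the labels' protocols. The deposited values are raw counts per gene in whole numbers, made by the authors. In the submitters' processing notes stand edgeR 3.26.8, Subread 1.5.2, featureCounts, GSNAP and FastQC 0.11.9, with mm10 (GRCm38) as the build; strand setting and multi-mapping reads are not given in the sources used here.

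Counts were scaled with TMM factors (0.991 for Ch25h-/-, 1.01 for C57BL/6) from edgeR 4.0.16 in R 4.3.3. TPM used merged exon lengths of GENCODE M21 (GRCm38), which holds 30126 of the 30538 gene IDs. Ratios have no prior count, a count of 0 was set to 3, and exact Clopper-Pearson intervals came from scipy 1.17.1 (Python 3.11.15, pandas 2.3.3, numpy 2.4.6). Intervals of a difference between 2 log2 ratios use the Poisson variance of the 4 counts. No p-value was computed, since each genotype has 1 library. Named genes are the 10 factors and, of each list, the 4 measured genes with the largest ratio in size and the most abundant one; others were named after their values were seen, to complete a family or a list. The 10 genes and the lists were chosen with earlier results of these data known. Ratio calls were tested on simulated data. The simulated counts held counting error only, so differences between mice or sorts were outside that test. Values of some listed genes that the rule names are not reported here. The alternatives tried were upper quartile factors, total counts, size factors of DESeq2 1.42.0, a prior count of 2, filters at 5 CPM or 1 count, and stricter intervals. Figures were drawn with matplotlib 3.10.9.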

Additional observations from a re-analysis of the deposited data

How the results depend on the processing

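No paired analysis was possible because each genotype has 1 library. No gene passed 2-fold under any of the 7 alternatives. With an interval wholly beyond the fold, 1 gene (Tbx21) was higher past 1.5-fold, against 2 otherwise, and Tcf7 stayed lower; Tox left because its interval on 160 counts reaches down to 0.43. Upper quartile factors brought Eomes over the 1.5-fold line, giving 3 genes higher. Other scalings and the prior count moved the log2 ratio of a gene by at most 0.03 in size, and all 40 recomputed ratios stayed within their counting interval. The median log2 ratio of the 10 genes ranged from 0.06 (total counts) to 0.10 (upper quartile factors). Total counts put the median of all measured genes at -0.01, against 0.01. Runx3, whose ratio is 0.01, became -0.01 with total counts, so its sign depends on the scaling. Levels per exon length moved beyond counting error in 16 of 20 cases with the longest transcript, by factors between 0.779 and 1.71. Taking the median of the NK cell markers in place of their sum shifted all relative ratios by -0.07 and leaving out Gzma and Prf1 by -0.20, which turned the signs of Tbx21 and Tox. The depth limits Tox most.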
